A study of Mus musculus with 6 samples.

Results

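The 10 genes described here restrain the cell cycle: the CDK inhibitors Cdkn1a, Cdkn1b, Cdkn1c, Cdkn2a, Cdkn2b, Cdkn2c and Cdkn2d, and the antiproliferative genes Btg1, Btg2 and Tob1. They were found as the rows of the deposited table that carry one of these gene symbols, which gave 11 of the 25123 transcript clusters with a symbol, Cdkn1b having 2. A transcript cluster is the set of short probes that the array reads for 1 gene. The cells were mouse c-kit+ bone marrow cells transformed by MLL-AF9, the product of a translocation found in acute myeloid leukemia. All 6 samples carried this fusion. The control group had received the empty retroviral vector pMIG, which expresses GFP, and the other group pMIG-TGIF1, the same vector with TGIF1, a homeodomain repressor of TGF-beta and retinoid responsive transcription. Each group had 3 arrays (Affymetrix MoGene ST). Cells had been sorted for GFP 3 days after the first transduction and were lysed after 1 more day in culture. The labels do not say whether the arrays of a group came from separate transductions or cultures, nor how many clones or animals stand behind the cells, so p-values cover just the spread among these samples, and that spread may be technical.

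CDK inhibitors are small proteins that block the cyclin-dependent kinases. The CIP/KIP family (Cdkn1a, Cdkn1b and Cdkn1c) binds cyclin-CDK complexes broadly and is known for its part in the arrest that goes with damage, maturation or quiescence. The INK4 family (Cdkn2a to Cdkn2d) binds only the D cyclin partners CDK4 and CDK6 and so keeps the retinoblastoma protein active. BTG and TOB proteins work on RNA instead: they bring the CCR4-NOT deadenylase to messenger RNAs, whose tails it shortens, and they are abundant in resting blood cells. In the myeloid lineage, some of these genes are known to come up as progenitors leave the cycle and mature.

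The labels were checked first against Tgif1. Its transcript cluster read 320, 376 and 408 for the empty vector and 239, 239 and 258 where the label is pMIG-TGIF1, or 1.49-fold lower (95% CI 1.26 to 1.76, limma adjusted p = 0.00286), which goes against the label. Intensities here are the authors' RMA values on a linear scale. The labels do not give the species of the TGIF1 insert or which part of the gene the vector carries, so whether these probes can read it was not tested, and each direction below rests on the labels alone. Array medians were 6.04 to 6.06 on the log2 scale in pMIG and 6.14 to 6.20 in pMIG-TGIF1, and arrays correlated at 0.994 to 0.997 within groups and 0.975 to 0.984 between them. With arrays centred on their medians, the median log2 fold change over all clusters moved by -0.12 and higher calls went from 46.6% to 29.9% of all calls, and this turned the direction of 1 member, a Cdkn1b cluster. The myeloid identity of the cells was readable from its markers, whose summed intensity over 9 genes was 18010 to 19088 in pMIG and 20765 to 22993 in pMIG-TGIF1, with 2 called higher and 3 lower. Cd14, a monocyte receptor, was 5.02-fold higher and the leukocyte antigen Ptprc 1.55-fold higher, whereas the progenitor genes Kit and Cd34 were 1.32-fold and 1.36-fold lower and the granule enzyme Mpo 1.88-fold lower. What part this difference in myeloid genes has in the members' values was not tested. Summed markers of other lineages were 210 to 212 against 206 to 213 for 5 B cell genes, 180 to 198 against 179 to 198 for 4 megakaryocyte genes and 332 to 385 against 352 to 384 for 5 stroma and endothelium genes, with 0 calls by limma in these lists and 0, 1 and 1 genes at an unadjusted p under 0.05. They were 180 to 187 against 187 to 210 for 5 T and NK cell genes (2 higher), 234 to 242 against 254 to 304 for 6 erythroid genes (2 higher), and 369 to 393 against 255 to 264 for 5 mast cell and basophil genes (1 lower, the IgE receptor subunit Ms4a2, at 4.02-fold). In these bulk samples, fewer cells of a type and less RNA per cell cannot be told apart.

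Of the 11 transcript clusters, 7 were higher and 2 lower with the label pMIG-TGIF1 by limma at a Benjamini-Hochberg adjusted p under 0.05, taken over all transcript clusters. Among all transcript clusters 24.7% were called, 11.5% higher and 13.2% lower. All 11 members lie above the dimmest 50%, and with that dim part left out 18.7% of clusters were called higher and 27.1% lower. The member counts were again 7 and 2 in that fit. The 3 arrays of one group lay wholly above or below those of the other in 9 of the 11, against 38.4% of all transcript clusters (18.7% with pMIG-TGIF1 above and 19.7% with it below). For each of these 9 a two-sided exact permutation test gave p = 0.1, which is the least that 3 against 3 arrays allow. By family, all 3 BTG/TOB genes rose. The CIP/KIP genes Cdkn1a and Cdkn1c rose, while both clusters of Cdkn1b did not pass. The INK4 genes split, with Cdkn2a and Cdkn2b higher and Cdkn2c and Cdkn2d lower. Of 17 alternative settings, Cdkn2c lost its call in 5 and Cdkn2d in 7. The median log2 fold change was 0.48 over the 11 clusters and 0.010 over all transcript clusters. Whether the families differ from one another was not tested.

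**Figure D1:**
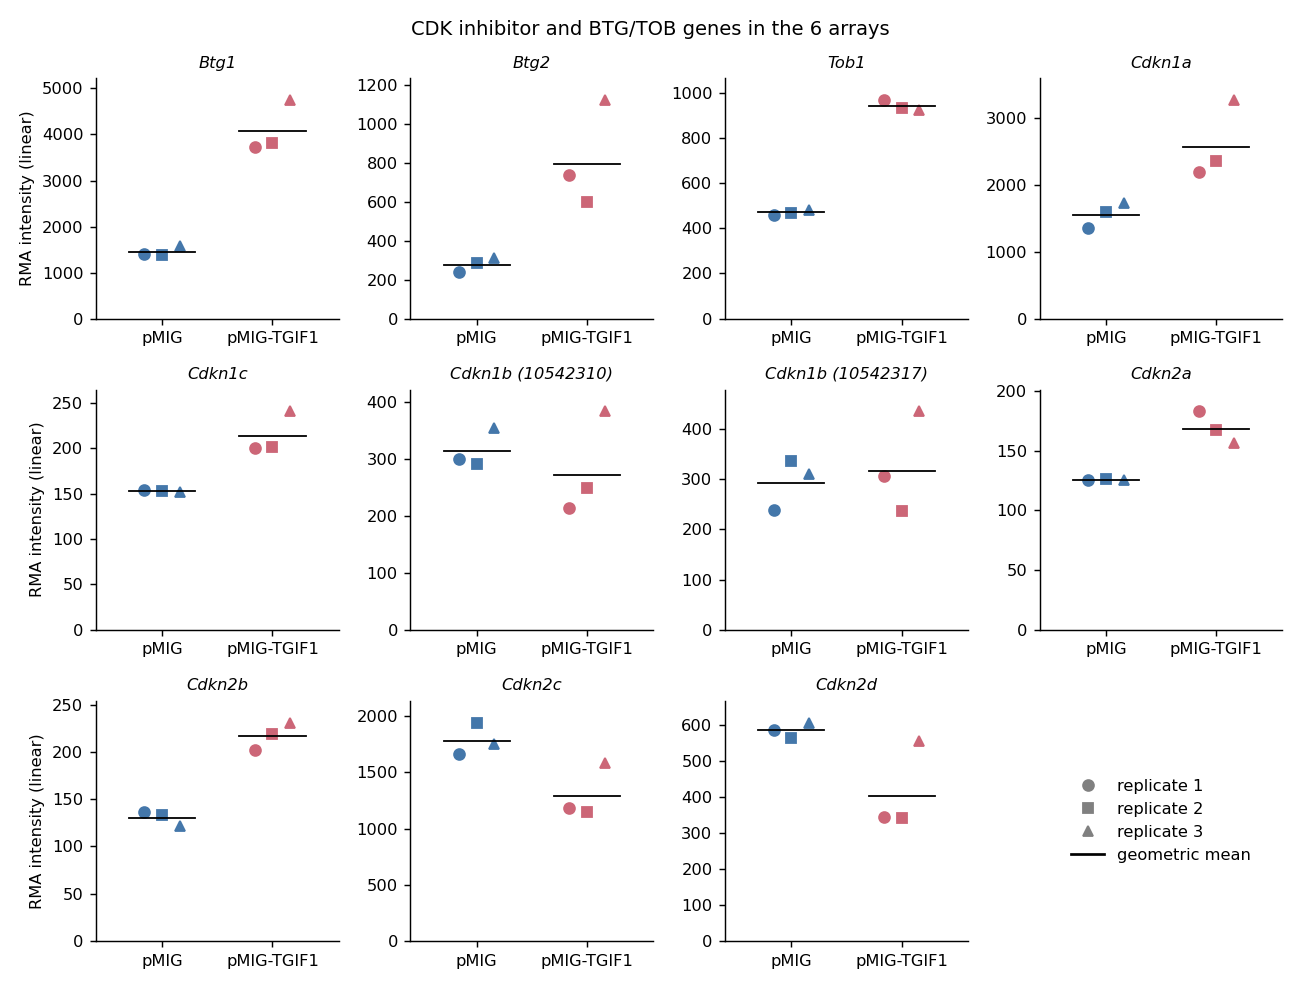
RMA intensity on a linear scale (vertical axis, from 0) of the 11 transcript clusters in the 3 pMIG and 3 pMIG-TGIF1 arrays. Points are single arrays, the marker shape gives the replicate number and the line is the geometric mean of the group. The groups do not overlap in 9 panels, and the 2 Cdkn1b panels overlap.

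The BTG/TOB genes showed the largest rises among the members. Btg1 and Btg2 encode closely related proteins that were named for a B cell translocation and for their antiproliferative effect. Btg1 read 1396, 1383 and 1586 in pMIG and 3722, 3813 and 4743 in pMIG-TGIF1. Every pMIG-TGIF1 array stood far above every pMIG array, at 2.80-fold (95% CI 2.34 to 3.35, limma adjusted p = 1.20e-05). Btg2, which is also a p53 target and an immediate early gene, read 237, 283 and 309 in pMIG and 738, 600 and 1120 in pMIG-TGIF1. The groups did not overlap here either, but the pMIG-TGIF1 arrays were spread widely, the highest 1.87 times the lowest. Its rise was 2.88-fold (95% CI 2.12 to 3.91, limma adjusted p = 0.000284). Tob1 encodes the transducer of ErbB2, which binds the same deadenylase and also poly(A)-binding protein. It read 460, 469 and 480 in pMIG and 966, 931 and 923 in pMIG-TGIF1. Replicates of Tob1 were the most even of this family, the highest array of each group being at most 1.05 times the lowest, and the rise was 2.00-fold (95% CI 1.75 to 2.28, limma adjusted p = 2.17e-05).

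The 3 genes rose together, and their promoters are shown to compare what lies just before their starts. The 250 bases before the transcription start come from RefSeq on GRCm38.p6, are written 5′ to 3′ in the direction of the gene, and have CCAAT boxes (CCAAT or its complement ATTGG) and the cAMP response element TGACGTCA in capitals.
Btg1, chr10:96616751-96617000, plus strand: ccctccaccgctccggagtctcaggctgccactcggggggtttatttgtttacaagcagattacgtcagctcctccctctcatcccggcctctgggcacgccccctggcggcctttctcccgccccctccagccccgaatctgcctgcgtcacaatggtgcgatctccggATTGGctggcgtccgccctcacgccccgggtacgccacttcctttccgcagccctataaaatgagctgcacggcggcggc
Btg2, chr1:134079156-134079405, minus strand: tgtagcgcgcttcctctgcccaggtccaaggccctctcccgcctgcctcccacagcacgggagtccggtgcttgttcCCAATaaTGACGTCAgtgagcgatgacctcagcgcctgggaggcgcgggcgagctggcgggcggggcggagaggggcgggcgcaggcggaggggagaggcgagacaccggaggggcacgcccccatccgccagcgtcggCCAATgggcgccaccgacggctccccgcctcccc
Tob1, chr11:94211204-94211453, plus strand: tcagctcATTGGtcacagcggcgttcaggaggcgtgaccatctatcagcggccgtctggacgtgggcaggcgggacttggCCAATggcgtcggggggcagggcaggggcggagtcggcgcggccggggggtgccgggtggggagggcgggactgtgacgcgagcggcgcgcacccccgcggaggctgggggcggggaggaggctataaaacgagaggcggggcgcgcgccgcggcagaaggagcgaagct
Each of the 3 holds at least 1 CCAAT box, 1 in Btg1, 2 in Btg2 and 2 in Tob1, and CCAAT was found on either strand in 33.8% of 32851 RefSeq promoter windows of the same length. They also hold the GC box GGGCGG, 2 times in Btg1 and 3 times in each of Btg2 and Tob1, which 32.7% of windows contain. The cAMP response element TGACGTCA stood in Btg2, 166 bases before the start, and 1.55% of windows contain it. None of the 3 windows contains the TGIF core letters TGTCA on either strand, which 40.0% of all windows do. The capitals do not overlap one another, while the GC boxes of Btg2 that begin 115 and 110 bases before the start share a base. The motifs were chosen after these sequences had been seen, and a match or its lack is a description of the letters only.

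Among the CIP/KIP genes, Cdkn1a was called higher. It encodes p21, the inhibitor induced by p53 and also by TGF-beta signals. Its intensity was 1357, 1590 and 1738 in pMIG and 2189, 2360 and 3268 in pMIG-TGIF1. The lowest pMIG-TGIF1 array stood above the highest pMIG array, and the rise was 1.65-fold (95% CI 1.30 to 2.09, limma adjusted p = 0.00565). Without limma's moderation of the variances the call was lost, with adjusted p = 0.104. The table of RefSeq promoters gives Cdkn1a 2 starts, and each window contains the TGIF core TGTCA 1 time, 41 and 203 bases before its start. A window of Cdkn2a and a window of Cdkn2c also contain it, as do 40.0% of all windows.

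Cdkn1c encodes p57, the CIP/KIP inhibitor whose gene is imprinted. It read 154, 153 and 152 in pMIG and 201, 202 and 241 in pMIG-TGIF1. The pMIG arrays were almost level and all pMIG-TGIF1 arrays lay above them, a rise of 1.40-fold (95% CI 1.20 to 1.63, limma adjusted p = 0.00496). Its neighbour Slc22a18, an imprinted transporter gene of the same domain, was also called higher, by 0.83 ± 0.10 (SE) on the log2 scale (limma adjusted p = 0.000161). On the other side the log2 fold change of Kcnq1, a potassium channel gene of the domain, was 0.092 ± 0.12 (adjusted p = 0.682).

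Cdkn1b encodes p27, the inhibitor that holds many resting blood cells out of the cycle and is controlled largely through degradation of the protein. The deposited table assigns 2 transcript clusters to it, and neither passed. Cluster 10542310 read 299, 291 and 353 in pMIG and 213, 248 and 383 in pMIG-TGIF1. In pMIG-TGIF1, replicates 1 and 2 were lower than any pMIG array and replicate 3 higher, with a log2 fold change of -0.20 (95% CI -0.62 to 0.21, limma adjusted p = 0.521). Without replicate 3 of pMIG-TGIF1 this cluster was called lower, at -0.45 ± 0.12 (SE, limma adjusted p = 0.0222). Cluster 10542317 read 238, 336 and 310 in pMIG and 305, 237 and 435 in pMIG-TGIF1. The groups overlapped widely, and the log2 fold change was 0.11 (95% CI -0.34 to 0.57, limma adjusted p = 0.766). Its direction turned without replicate 3 of pMIG-TGIF1 (-0.12, adjusted p = 0.696), without replicate 1 of pMIG (-0.033, adjusted p = 0.944) and with array median centring (-0.0013, adjusted p = 0.997). The intervals leave room for a change of up to 1.54-fold lower in the first cluster and 1.48-fold higher in the second.

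**Figure D2:**
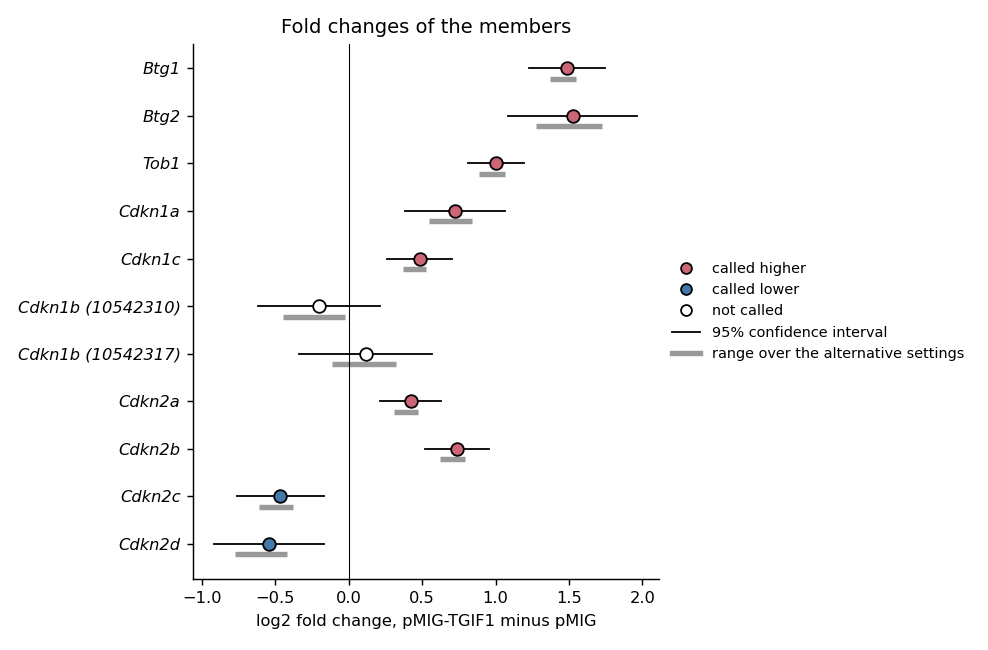
Log2 fold change of pMIG-TGIF1 over pMIG for each of the 11 transcript clusters (horizontal axis), with 95% confidence intervals from limma as black lines and the range over the alternative settings as grey bars. Filled points were called, and the 3 BTG/TOB genes lie furthest to the right, from 1.00 to 1.53.

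The INK4 genes moved in opposite directions. Cdkn2b encodes p15, an inhibitor known as a TGF-beta target and often silenced in myeloid leukemia. It read 136, 133 and 121 in pMIG and 202, 219 and 231 in pMIG-TGIF1. All pMIG-TGIF1 arrays were higher and both groups were tight, with a rise of 1.67-fold (95% CI 1.44 to 1.94, limma adjusted p = 0.000298). Cdkn2a lies beside it on chromosome 4 and encodes both p16 and the p53 activator ARF from different first exons. One cluster reads the gene here, so the 2 products were not told apart. Cdkn2a read 126, 126 and 125 in pMIG and 183, 167 and 156 in pMIG-TGIF1. Its pMIG arrays were nearly level and the pMIG-TGIF1 arrays were all higher, by 1.34-fold (95% CI 1.16 to 1.55, limma adjusted p = 0.00729). The pMIG levels of Cdkn2a and Cdkn2b were low. Col1a1, the brightest of the 5 stroma and endothelium markers, read 112 to 125 in pMIG. No detection call comes with these values, so how far the 2 genes stood above background was not measured. The genes that flank the pair, looked up after these values had been seen, were not called higher. Mtap, a methionine salvage enzyme next to Cdkn2a, was lower (log2 -0.46 ± 0.15 SE, limma adjusted p = 0.0456), and Dmrta1 next to Cdkn2b differed by 0.21 ± 0.11 (adjusted p = 0.200).

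The Cdkn2b promoter is shown because it is the other member window with the cAMP response element, again in capitals, 46 bases before the start (RefSeq, GRCm38.p6).
Cdkn2b, chr4:89311033-89311282, minus strand: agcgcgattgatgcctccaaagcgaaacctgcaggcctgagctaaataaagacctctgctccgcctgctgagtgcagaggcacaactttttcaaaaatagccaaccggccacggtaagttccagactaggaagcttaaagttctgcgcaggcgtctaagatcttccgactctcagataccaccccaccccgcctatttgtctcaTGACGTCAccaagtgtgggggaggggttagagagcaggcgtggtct
No CCAAT box, GC box or TGTCA was found in these letters. Over the 12 windows of the 9 members that the RefSeq table holds, TGACGTCA was found in 2, CCAAT in 5, GGGCGG in 8 and TGTCA in 4. The windows ranged from 42.8% to 78.4% G and C, against a median of 52.4% over all windows, and a GC-rich motif such as GGGCGG depends on that composition.

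Cdkn2c and Cdkn2d, the INK4 genes that are normally expressed during development and maturation, were called lower. Cdkn2c, which encodes p18, read 1662, 1945 and 1756 in pMIG and 1187, 1144 and 1588 in pMIG-TGIF1. Its replicate 3 of pMIG-TGIF1 came close to the lowest pMIG array, and the fall was 1.38-fold (95% CI 1.13 to 1.69, limma adjusted p = 0.0261). The call of Cdkn2c was lost without replicate 2 (adjusted p = 0.101) or 3 (0.0703) of pMIG, without replicate 1 (0.0822) or 2 (0.0907) of pMIG-TGIF1, and without moderation (0.157). Cdkn2d, which encodes the INK4 protein p19, read 588, 565 and 608 in pMIG and 345, 342 and 556 in pMIG-TGIF1. Replicates 1 and 2 of pMIG-TGIF1 were far below pMIG, whereas replicate 3 reached nearly the lowest pMIG value. The fall was 1.45-fold (95% CI 1.12 to 1.89, limma adjusted p = 0.0397). Without replicate 3 of pMIG-TGIF1 it was 1.71-fold (limma adjusted p = 0.000244), and that of Cdkn2c 1.53-fold (0.00185). The call of Cdkn2d was lost without replicate 1 (adjusted p = 0.101), 2 (0.0827) or 3 (0.118) of pMIG, without replicate 1 (0.127) or 2 (0.133) of pMIG-TGIF1, with quantile normalization (0.0817) and without moderation (0.227). In every alternative the direction of both genes stayed downward.

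The authors' deposited table gives the same directions and sizes for all 11 clusters, since it rests on the same intensities. In the authors' deposited table the signed fold change was 2.88 for Btg2, 1.65 for Cdkn1a, -1.38 for Cdkn2c and -1.45 for Cdkn2d. The p-value in the authors' deposited table was 0.05 for Cdkn2c and 0.08 for Cdkn2d, and for the 7 members called higher it was at most 0.02.

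Replicate 3 of pMIG-TGIF1 stood apart in these genes. It was the highest of the 3 pMIG-TGIF1 arrays in 9 of the 11 clusters, against 40.2% of all transcript clusters. Its deviation from the group's mean had a median of 0.30 on the log2 scale over the 11 clusters and 0.017 over all transcript clusters. The deviation was 0.50 for Btg2, 0.49 and 0.46 for the Cdkn1b clusters 10542310 and 10542317, 0.46 for Cdkn2d, 0.35 for Cdkn1a, 0.30 for Cdkn2c and 0.22 for Btg1. Tob1 (-0.026) and Cdkn2a (-0.11) were the 2 exceptions. The excess thus ran through members that were higher, lower and not called in the comparison of groups. Proliferation genes moved the other way in this array: over 14 of them its median deviation was -0.34, and it was the lowest of its group in 12. The limma array weight of this array was 0.56, the lowest of the 6. What part these differences play in the members' values was not tested. Without this array the same 7 members were called higher, at 2.59-fold for Btg1, 2.42-fold for Btg2, 2.02-fold for Tob1 and 1.46-fold for Cdkn1a, and 3 were called lower, Cdkn2c, Cdkn2d and a Cdkn1b cluster.

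**Figure D3:**
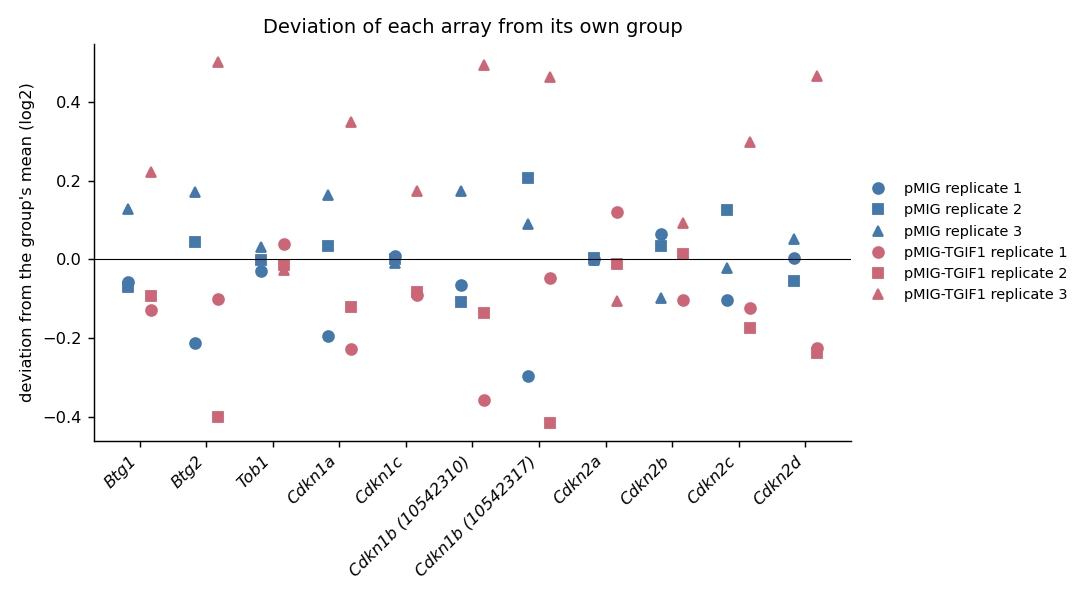
Deviation of each array from the mean of its own group on the log2 scale (vertical axis) for the 11 transcript clusters, with pMIG in blue and pMIG-TGIF1 in red and the replicate number as marker shape. The red triangles, replicate 3 of pMIG-TGIF1, are the highest red points in 9 clusters and reach 0.50 in Btg2.

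The relatives outside the 10 genes did not follow the BTG/TOB rise as one. Btg3, a further member of that family, was called higher (1.32-fold, limma adjusted p = 0.0124), and Tob2, the closest relative of Tob1, was called lower (1.28-fold, adjusted p = 0.0414). Btg4, an oocyte gene, read 16.2 to 23.6 in pMIG and 21.0 to 23.9 in pMIG-TGIF1 and did not pass (adjusted p = 0.324). Cdkn3, a phosphatase that acts on CDKs and is expressed in cycling cells, was called lower (1.57-fold, adjusted p = 0.00186). Btg3 was lost without replicate 1 or 3 of pMIG (adjusted p = 0.0555 and 0.0551). Tob2 was lost without any single pMIG array (adjusted p = 0.0688 to 0.123), without replicate 1 (0.139) or 3 (0.0728) of pMIG-TGIF1 and with the replicate number as a block (0.0598). Both were also lost without moderation (0.0565 for Btg3 and 0.145 for Tob2).

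Genes of the kinase step that the inhibitors block (cyclins D, E and A2, the kinases Cdk2, Cdk4 and Cdk6, and the retinoblastoma family, which are substrates of the kinases) were called higher in 2 of 12 and lower in 6 of 12, with a median log2 fold change of -0.30. Over all transcript clusters 11.5% were called higher and 13.2% lower, or 18.7% and 27.1% with the dimmest 50% left out. These shares stand beside the counts of this list and of those below. Cdk6, the INK4 target kinase on which MLL-rearranged leukemias are known to depend, read 6297, 5550 and 5446 in pMIG and 2772, 3018 and 2982 in pMIG-TGIF1, 1.97-fold lower (limma adjusted p = 5.40e-05). Its partner kinase Cdk4 had a log2 fold change of 0.0041 ± 0.11 (adjusted p = 0.987). Cyclin genes split as well: Ccnd2 was 1.49-fold higher (adjusted p = 0.00129), while the S phase cyclins Ccna2 (1.76-fold, adjusted p = 0.000188) and Ccne2 (2.20-fold, adjusted p = 0.00234) were lower. The count of calls higher in this list was 1 without any single pMIG array or without replicate 3 of pMIG-TGIF1. It was also 1 with array median centring and without moderation. Ccnd2 kept its call in all 17 alternatives, so Rb1 was the gene whose call was lost in these. The call of Ccne2 was lost without moderation (adjusted p = 0.0916). Of the substrates, Rb1 was 1.32-fold higher (adjusted p = 0.0305), and Rbl1 and Rbl2 were 1.94-fold and 1.41-fold lower (adjusted p = 0.00277 and 0.00550). Cdk4 and these 3 genes were picked out after their values had been seen.

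The degradation machinery of the CIP/KIP proteins was called lower in 6 of 12 genes and higher in 0, with a median of -0.25. Skp2, the ubiquitin ligase subunit that targets p27, fell 1.77-fold (limma adjusted p = 0.000525) and its cofactor Cks1b 1.59-fold (adjusted p = 0.00120). Dtl, the ligase adaptor that targets p21 during replication, fell 2.67-fold (adjusted p = 0.000175), from 572 to 696 in the pMIG arrays to 176 to 291 in pMIG-TGIF1. Rnf123, another p27 ligase subunit, was at -0.32 ± 0.09 on the log2 scale (adjusted p = 0.0243) and was lost without any pMIG array (0.0602 to 0.0854), without replicate 1 of pMIG-TGIF1 (0.0787), with the replicate number as a block (0.0669) and with quantile normalization (0.0562). Of this list 3 genes were called lower without replicate 1 or without replicate 3 of pMIG. The arrays measure RNA, so the level of the p27 and p21 proteins was not measured.

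Chromatin regulators of the Cdkn2a and Cdkn2b locus were called lower in 5 of 13 genes and higher in 0, with a median of -0.14. The list holds Polycomb genes and Kdm2b, known for silencing the locus, and Kdm6b, a demethylase known for opening it, which was picked out after its value had been seen and did not pass (log2 0.24 ± 0.13, limma adjusted p = 0.242). Ezh2, the methyltransferase of Polycomb complex PRC2, fell 1.85-fold (limma adjusted p = 8.07e-05), and Ring1, a ubiquitin ligase of PRC1, fell by 0.41 ± 0.09 on the log2 scale (adjusted p = 0.00582). Kdm2b fell by 0.39 ± 0.10 (adjusted p = 0.0126), lost without replicate 1 of pMIG (0.0564). Suz12, another PRC2 subunit, fell by 0.41 ± 0.12 (adjusted p = 0.0286) and was lost without replicate 1 (0.112) or 2 (0.0824) of pMIG, without replicate 1 of pMIG-TGIF1 (0.0967), with the replicate number as a block (0.0580) and without moderation (0.136). The count of genes called lower was 2 without replicate 1 of pMIG and 3 without replicate 2 of pMIG, without replicate 1 of pMIG-TGIF1 or with the block. The count of genes called higher was 1 without replicate 1 of pMIG.

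Transcription regulators of the members were called higher in 7 of 21 and lower in 3 of 21 genes, with a median of 0.19. The zinc finger factors Egr1 (3.94-fold), Klf4 (3.22-fold) and Klf6 (2.89-fold), of which Klf4 and Klf6 are known activators of Cdkn1a, rose at limma adjusted p-values of 1.94e-05, 5.42e-05 and 1.68e-05. Gfi1, a repressor of Cdkn1a and Cdkn2b in blood cells, fell 2.15-fold (adjusted p = 0.000110). Trp53 itself was at -0.28 ± 0.14 on the log2 scale (adjusted p = 0.208) and its inhibitor Mdm2, also a p53 target, at 0.022 ± 0.13 (adjusted p = 0.932), both picked out after their values had been seen. The partners of BTG/TOB proteins were called lower in 4 of 15 genes and higher in 0, with a median of -0.091. Those 4 were the methyltransferase Prmt1 (log2 -0.57 ± 0.11, adjusted p = 0.00371) and the CCR4-NOT genes Cnot6l (-0.44 ± 0.10, adjusted p = 0.00912), Cnot9 (-0.44 ± 0.11, adjusted p = 0.0160) and Cnot10 (-0.42 ± 0.10, adjusted p = 0.0115). All 4 lost the call without moderation (adjusted p = 0.0574 for Prmt1), Cnot9 also without replicate 1 or 2 of pMIG (0.0545 and 0.0551) and Cnot10 without replicate 2 (0.0523). In that list 2 genes were called lower without replicate 2 of pMIG, and 7 with array median centring. With the dimmest 50% of clusters left out, 5 of its 15 genes and 27.1% of all clusters kept were called lower. The deadenylase subunits Cnot7 (0.19 ± 0.09, adjusted p = 0.174) and Cnot8 (0.14 ± 0.10, adjusted p = 0.373), which BTG and TOB proteins bind and which were picked out after their values had been seen, did not pass.

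**Figure D4:**
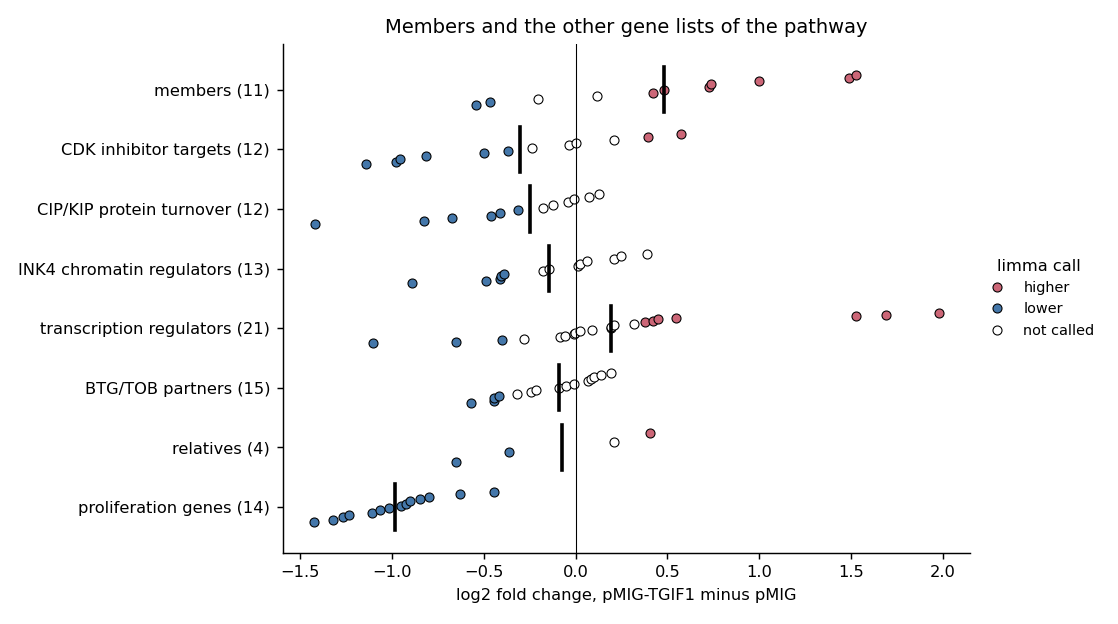
Log2 fold change of pMIG-TGIF1 over pMIG (horizontal axis) for each member cluster and each gene of the 7 lists. Parentheses give the number of points, which are transcript clusters for the members (11) and genes for the lists. Colour gives the limma call and the vertical bar the median, which is 0.48 for the members and -0.98 for the 14 proliferation genes.

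Proliferation genes, read beside the inhibitors, were called lower in 14 of 14, with a median log2 fold change of -0.98. On the log2 scale Mki67, the proliferation antigen, fell by 1.42 ± 0.14 (SE), the replication helicase subunit Mcm3 by 1.32 ± 0.18, the mitotic kinase Aurkb by 1.02 ± 0.14 and the mitotic cyclin Ccnb1 by 0.90 ± 0.12. Without moderation 6 of the 14 were called.

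Of 17 measured genes that flank the members in the RefSeq order, 2 were called higher and 5 lower, and besides Slc22a18 the other one higher was Chit1, a chitinase gene beside Btg2 (log2 0.32 ± 0.10, limma adjusted p = 0.0362). The shares over all transcript clusters were 11.5% higher and 13.2% lower, or 18.7% and 27.1% with the dimmest 50% left out. Rab44, beside Cdkn1a, fell by 1.41 ± 0.10 on the log2 scale (adjusted p = 5.62e-06). Both flanks of Cdkn2c were called lower, as Cdkn2c was, Faf1 by 0.53 ± 0.09 (adjusted p = 0.00171) and 4930522H14Rik by 0.28 ± 0.09 (adjusted p = 0.0399). The mean log2 level of 4930522H14Rik was just 3.78 in pMIG and 3.50 in pMIG-TGIF1, dimmer than the flanks of Btg2 given below. Whether it was expressed is not known from these values. Beside Cdkn2d, Kri1 fell by 0.73 ± 0.11 (adjusted p = 0.000654) and Ap1m2 was at -0.29 ± 0.11 (adjusted p = 0.0721). The 5 lower include Mtap, given above. Both genes on the sides of Btg2, Fmod and Chit1, were read at log2 levels under 5.15 in each group, and the array gives no detection call.

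By Pearson correlation of log2 intensity over the 6 arrays, the 3 genes whose pattern was most like that of Btg2 were Ppib (r = 0.999), Septin10 (0.999) and Primpol (0.998). For Cdkn2d, the member with the largest fall, they were Smim14, Mmp28 and Zfp691 (0.991 for each). These are the highest by construction among the transcript clusters compared, which left out the members and predicted genes. Predicted genes here are symbols starting with Gm, LOC or BC before digits, or ending in Rik. The points share the 2 groups and the high replicate 3 of pMIG-TGIF1. Ppib rose by 0.54 ± 0.10 on the log2 scale and Mmp28 fell by 0.42 ± 0.13, smaller changes than those of Btg2 and Cdkn2d. Septin10 (0.65 ± 0.12) and Primpol (0.61 ± 0.12) also rose. Smim14 (-0.34 ± 0.12, limma adjusted p = 0.0668) and Zfp691 (-0.28 ± 0.12, adjusted p = 0.118) did not pass.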

How the data were processed

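RNA of 6 samples was measured on Affymetrix MoGene ST arrays. The deposited intensity values are linear-scale probe set summaries made by the authors: the submitters' processing notes list RMA and Partek. The genome build behind the array annotation is not given in the sources used here. The deposited table also holds the authors' p-value, to 2 decimals, and their signed fold change, a score below 0 for a fall, from a test that no source used here gives. Both deposited tables held the same 28853 rows, with a largest difference of 0. The 3730 rows without a symbol were left out.

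From there, limma 3.58.1 under R 4.3.3 was run on log2 intensities of the 6 arrays (lmFit, then eBayes, no dim filter), with differences taken as pMIG-TGIF1 less pMIG. A call is a Benjamini-Hochberg adjusted p under 0.05 over 25123 transcript clusters. Rose and fell are used of calls. SE and 95% intervals are those of this fit. The number of arrays limits the precision. All 11 member clusters lie above the dimmest 50%. Members were matched by the table's symbol. Other genes were matched by symbols updated through RefSeq accessions, with 1 cluster per gene, that with the highest mean. All members are named, as are the 4 genes with the smallest p of each pathway list, the 3 patterns most like Btg2 and Cdkn2d, and a few genes picked after their values were seen. Marker lists are given as sums and counts over all their matched genes, with the called myeloid and mast cell genes named. Ly6c2 of the myeloid list and Gp6 of the megakaryocyte list had no matching cluster. The members and lists were chosen with earlier results of these data known. RefSeq sequences and gene order (GRCm38.p6) were used for promoters and neighbours, and Cdkn1c was not matched in the promoter table. The fit was tested on simulated data with independent noise. That simulation held no shift shared by the genes of an array, so it cannot speak to one. Same-numbered arrays did not deviate together (correlations -0.19, -0.11 and -0.049), so replicate numbers were not taken as pairs. Alternatives were array weights, median centring, quantile normalization, a prior that both follows intensity and is robust (changed together), unmoderated variances, the replicate number as block, filters on the dimmest 30% and 50%, other choices of probe sets, the second table, and each array left out.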

Additional observations from a re-analysis of the deposited data

How the results depend on the processing

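Of the 9 members called, Btg1, Btg2, Tob1, Cdkn1c, Cdkn2a and Cdkn2b kept their call and direction in all 17 alternatives, with Btg2 between 1.28 and 1.73 on the log2 scale and adjusted p at most 0.0471. Cdkn1a lost its call only without moderation, Cdkn2c in 5 alternatives and Cdkn2d in 7. Members called higher numbered 7 in each alternative but no moderation, where they were 6. Members called lower numbered 0 without moderation, 1 with quantile normalization and 0 to 3 on leaving out single arrays. The Cdkn1b cluster 10542317 turned to -0.0013 with array median centring and ranged from -0.12 to 0.32 on leaving out single arrays, being below 0 without replicate 3 of pMIG-TGIF1 or replicate 1 of pMIG (-0.033). The replicate number as a block, although the numbers do not pair the arrays, gave 7 members higher and 2 lower and 2579 and 2957 calls over all transcript clusters, and 3 INK4 chromatin regulators and 1 relative called lower. Without moderation, calls over all transcript clusters were 1754 higher and 1647 lower. Median centring gave 5007 lower. In the lists, no moderation gave 1 CDK inhibitor target higher and 3 lower, 3 INK4 chromatin regulators lower, 0 BTG/TOB partners lower, 0 relatives higher and 1 lower, and 6 proliferation genes lower. Centring gave 1 CDK inhibitor target higher and 7 BTG/TOB partners lower. On leaving out single arrays the counts ran from 2323 to 2724 higher and 2537 to 3187 lower over all transcript clusters. They ran from 1 to 2 for CDK inhibitor targets higher, 3 to 6 for CIP/KIP turnover lower, 0 to 1 for INK4 chromatin regulators higher and 2 to 5 lower, 2 to 5 for BTG/TOB partners lower, 0 to 1 for relatives higher and 1 to 2 lower, and 13 to 14 for proliferation genes lower. For the changes beyond fewer arrays, the cause was not tested. No detection call comes with these values, so signal over background limits the dim genes in a way not measured here.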
